A study of Mus musculus with 18 samples.

Results

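The genes of cholesterol synthesis and sterol sensing were followed as a set of 31 mouse genes named by symbol in RNASeq libraries of splenic B cells. The set held 18 enzymes of the pathway from acetyl-CoA to cholesterol, 5 genes of the SREBP machinery, 3 genes of sterol transport and esterification, 2 genes for LXR receptors and 3 LXR targets. Of the 31 members, 30 were found among the 28096 genes counted per library, and all 30 passed the filter on low counts, which kept 14161 genes. Counts of *Hmgcs1* were not analysed here. The cells came from WT and *Ubqln1*-/- mice of the C57BL/6 N strain that were at least 8 weeks old. In the *Ubqln1*-/- line exon 2 of *Ubqln1*, the gene for a ubiquitin-binding shuttle and chaperone protein, had been removed with Cre in the ES cells from which the mice were made, so every cell of the animal carried the deletion. B cells were purified on Miltenyi columns, cultured in medium with fetal bovine serum and left resting, stimulated through the BCR with F(ab)2 fragments against IgM (anti-IgM, at 10 μg/mL) or through a Toll-like receptor with bacterial LPS (20 μg/mL). RNA was taken after 4 hr, the wells of a sample were pooled before purification, and each of the 6 groups held 3 libraries.

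Cells sense cholesterol in the endoplasmic reticulum. When it runs low, SCAP carries the SREBP transcription factors to the Golgi, where they are cut, and the released fragments switch on the enzymes of sterol synthesis; when it is plentiful, the INSIG proteins hold SCAP back. Oxysterols, which accumulate with cholesterol, instead activate the LXR receptors, whose targets export sterol from the cell or reduce its uptake. Activated lymphocytes are known to raise sterol synthesis before they divide.

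The libraries held between 15368941 and 41072854 counts. Values below are CPM, the share of a library's counts scaled to 1000000 after TMM normalization. A gene was called where edgeR's quasi-likelihood test gave a Benjamini-Hochberg adjusted p under 0.05 over all tested genes, and errors of log2 fold changes are standard errors (SE). The targeted gene was lower in every library from *Ubqln1*-/- mice, at 91.4 to 128 CPM for *Ubqln1* against 230 to 339 CPM in WT cells. The count covers the whole transcript, so it can include exons outside the deletion. B cell markers (*Cd79a*, *Cd79b*, *Ms4a1*, *Pax5* and *Cd22*) summed to between 1622 and 6192 CPM. The T cell markers stayed between 0.627 and 1.7 CPM in sum over 6 genes, with *Cd3e*, *Cd3g*, *Cd3d*, *Cd4* and *Cd8b1* under 1 CPM in every library. The summed NK cell markers reached at most 0.559 CPM, the neutrophil markers at most 0.949 CPM and the erythroid and platelet markers at most 8.34 CPM.

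Anti-IgM raised most of the synthesis pathway and lowered the 3 LXR targets of the set. In WT cells 17 of the 30 members measured rose and 8 fell, against 32.4% and 32.2% of all tested genes. Among *Ubqln1*-/- libraries 17 rose and 6 fell, where the shares among all genes were 32.9% and 32.4%. LPS raised 16 members and lowered 7 in WT cells (31.2% and 30.1% of all genes) and raised 16 and lowered 7 in *Ubqln1*-/- cells (30.6% and 30.2%). In all 4 of these comparisons 16 members rose (22.2% of all genes) and 4 members, *Insig2*, *Npc1*, *Abca1* and *Mylip*, fell (20.4% of all genes). The comparisons within a genotype share the resting libraries, so their counts are not independent of each other. In bulk samples fewer cells of a type and less RNA per cell cannot be told apart.

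**Figure D1:**
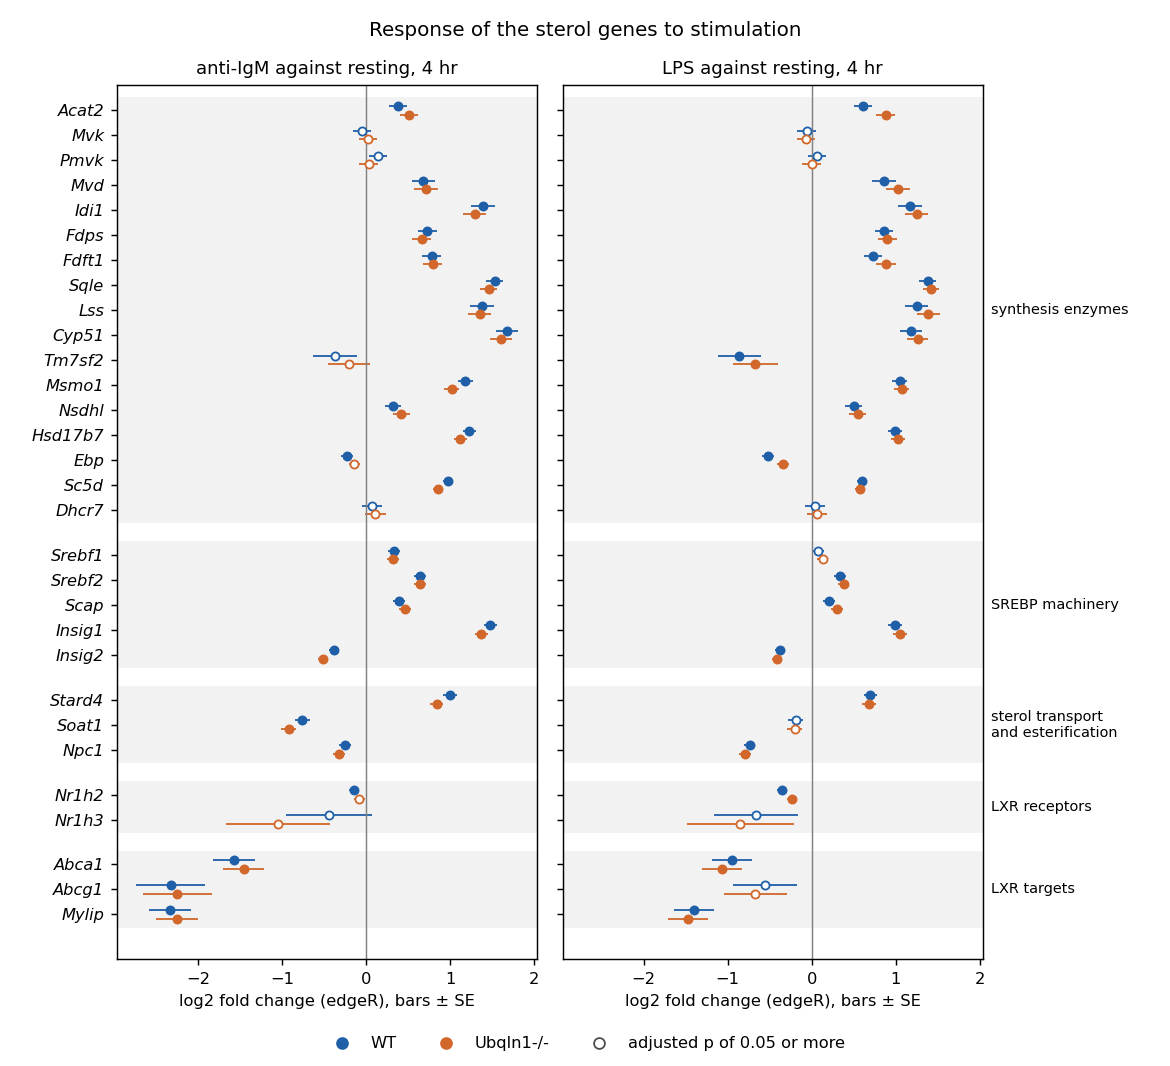
Log2 fold change of each of the 30 measured members after anti-IgM (left) and LPS (right) against resting cells of the same genotype, in blue for WT and orange for Ubqln1-/- cells, with bars of 1 SE; filled points passed an adjusted p of 0.05 and open points did not. Most synthesis enzymes lie right of 0, up to 1.68 for Cyp51 in WT cells, and the LXR targets lie left of 0, down to -2.34 for Mylip.

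Of the synthesis enzymes, 12 of the 17 measured rose in all 4 comparisons, against 22.2% of all genes. They were *Acat2*, *Mvd*, *Idi1*, *Fdps*, *Fdft1*, *Sqle*, *Lss*, *Cyp51*, *Msmo1*, *Nsdhl*, *Hsd17b7* and *Sc5d*. The median log2 fold change over the 17 enzymes was 0.73 with anti-IgM and 0.73 with LPS in WT cells, and 0.71 and 0.88 in *Ubqln1*-/- cells, while the medians over all tested genes lay between -0.02 and -0.01. The rise was unequal along the pathway, and *Cyp51*, *Sqle*, *Idi1* and *Lss* had the 4 largest values for both stimulations in WT cells.

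*Cyp51* (chr5:4080674-4104697, minus strand, GRCm38) encodes the lanosterol 14-alpha-demethylase. It stood at 132, 149 and 124 CPM in the 3 resting WT libraries, at 459, 442 and 395 CPM with anti-IgM and at 318, 336 and 267 CPM with LPS. The 3 conditions did not overlap, with resting lowest and anti-IgM highest. The log2 fold change was 1.68 with anti-IgM (SE 0.13, adjusted p = 1.18e-08) and 1.18 with LPS (SE 0.13, adjusted p = 7.3e-07). In *Ubqln1*-/- cells *Cyp51* went from 141, 134 and 107 CPM at rest to 450, 369 and 350 CPM with anti-IgM and to 346, 305 and 263 CPM with LPS, the same order of conditions without overlap.

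*Sqle* (chr15:59315092-59331193, plus strand), squalene epoxidase, the first oxygen-requiring step and a rate-limiting one, was measured at 82.7, 100.4 and 87.8 CPM in resting WT cells, at 260.2, 278 and 246 CPM with anti-IgM and at 244, 258 and 203 CPM with LPS. Resting libraries were the lowest throughout, and the ranges of both stimulations overlapped. The resting values of *Ubqln1*-/- cells were 90.9, 87.8 and 78.2 CPM, and those with anti-IgM were 260.4, 223 and 224 CPM and with LPS 250.1, 232 and 206 CPM. The log2 fold change with anti-IgM was 1.53 (SE 0.1) in WT and 1.46 (SE 0.1) in *Ubqln1*-/- cells, and with LPS it was 1.38 and 1.42.

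Within the group of enzymes that rose, *Lss* and *Idi1* came nearest to these. *Lss*, which closes squalene epoxide into lanosterol, had a log2 fold change of 1.38 with anti-IgM and 1.25 with LPS in WT cells (SE 0.14 each), and *Idi1*, which makes the isoprenoid starter unit, had 1.39 and 1.17. *Hsd17b7* and *Msmo1*, which act on sterol intermediates after lanosterol, reached 1.23 and 1.18 with anti-IgM. *Sc5d*, which introduces a late double bond, had log2 fold changes of 0.97 with anti-IgM and 0.6 with LPS (SE 0.06 each), with 50.8, 50.7 and 53.6 CPM at rest against 102, 102 and 101 CPM with anti-IgM in WT cells. The remaining members of this group moved less, with log2 fold changes in WT cells after anti-IgM of 0.78 for *Fdft1*, squalene synthase, 0.73 for *Fdps*, farnesyl diphosphate synthase, 0.68 for *Mvd*, the decarboxylase of the mevalonate branch, 0.38 for *Acat2*, the cytosolic thiolase of the entry step, and 0.32 for *Nsdhl*, a sterol decarboxylase.

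The other 5 measured enzymes were not called higher in any comparison. *Mvk*, mevalonate kinase, stood at 16.8, 19.4 and 18.1 CPM in resting WT libraries and at 17.6, 18.1 and 16.8 CPM with anti-IgM, ranges that overlapped, and *Dhcr7*, which carries out a last reduction to cholesterol, stood at 50.9, 50.2 and 49.5 CPM and at 55.3, 56.3 and 46.9 CPM. Neither they nor *Pmvk*, phosphomevalonate kinase, were called in any of the 4 comparisons, and their log2 fold changes lay between -0.07 and 0.14. The 95% intervals of these values reached from -0.31 to 0.38. *Ebp*, the sterol isomerase, fell with LPS, from 36.8, 37.3 and 35.1 CPM to 27.6, 24 and 24.7 CPM in WT cells with no overlap (log2 fold change -0.52, SE 0.07, adjusted p = 6.87e-06), and by 0.34 on the log2 scale in *Ubqln1*-/- cells. With anti-IgM its value was -0.23 in WT cells (adjusted p = 0.00874, and 0.0507 without the third anti-IgM library) and -0.14 in *Ubqln1*-/- cells (adjusted p = 0.0892, and 0.0315 without the first anti-IgM library, at -0.19). *Tm7sf2*, a sterol reductase, was low, at 3.79 to 10.5 CPM over all libraries, and its fall with LPS of -0.86 in WT cells (SE 0.26, adjusted p = 0.00888) rested on overlapping groups, as did that of -0.67 in *Ubqln1*-/- cells (adjusted p = 0.0381). With anti-IgM it was -0.37 in WT cells (adjusted p = 0.227), and -0.62 (adjusted p = 0.0337) without the third resting library. The WT call with LPS was lost without the second resting library (-0.70, adjusted p = 0.0545), and the *Ubqln1*-/- call without the first resting library (-0.36, adjusted p = 0.274) or without replicate 2 or 3 of LPS (-0.64 and -0.54, adjusted p = 0.0991 and 0.134).

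Reads of at least 11 measured members could be shared with other genes, since the kit kept no strand and the reads were 50 bases long. For 6 of them another gene held at least 5% of the 50-base windows of their transcripts. Of these windows *Acat2* shared 39.1% with the related gene *Acat3*, *Fdps* shared 23.4% with *Gm43738*, *Idi1* 17.7% with *Gm13502*, *Fdft1* 17.2% with *Ctsb* on the opposite strand, *Scap* 10.0% with *5830462I19Rik* and *Tm7sf2* 9.9% with *Vps51*. Further genes held windows too: *Acat2* shared 11.2% with *Tcp1*, and *Fdft1* 9.4% with *Gm6781*. *Fdps* shared 12.1% with *Gm3571* and 5.5% with *Gm5873*, and *Idi1* 7.6% with *Gm48574* and 5.1% with *Gm35570*. The other 5 members, *Cyp51*, *Lss*, *Npc1*, *Nr1h3* and *Srebf1*, overlapped another gene over 0.8% to 4.5% of their exonic bases. How the counting treated such reads is not given in the sources used here, and values of these genes are uncertain to that degree. Among the 14 measured SREBP targets outside the 6 named first, 10 rose in all 4 comparisons, against 22.2% of all genes.

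Most SREBP targets with a promoter window shared a sequence feature. RefSeq windows of GRCm38.p6, from 250 bases before to 50 after a start, were at hand for 25 of the 31 members. The CCAAT box, which binds NF-Y, a partner of SREBP, was searched on either strand. Windows of 15 of the 16 SREBP targets with one held it, *Hmgcs1* included, against 41.1% of the 27025 genes in the table. That share covers all these genes, expressed in B cells or not, and a gene counted where any of its windows held the box. Responses differed among the genes that held it: of the 14 SREBP targets higher in all 4 comparisons 10 had a window, and 9 of these held it, *Acat2* being the exception, and so did the 5 that were not, *Mvk*, *Pmvk*, *Tm7sf2*, *Ebp* and *Dhcr7*. Among the other members it stood in windows of *Srebf1*, *Srebf2*, *Insig2*, *Soat1* and *Mylip*, and not in that of *Abca1*.

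The stretches of 120 bases just before the start are shown for 2 enzymes that rose (*Mvd*, *Sc5d*), for 1 that fell with LPS (*Ebp*) and for 1 LXR target (*Mylip*), on the strand of the gene, with the CCAAT box or its reverse complement ATTGG in capitals:
Mvd, chr8:122443423-122443542, minus strand: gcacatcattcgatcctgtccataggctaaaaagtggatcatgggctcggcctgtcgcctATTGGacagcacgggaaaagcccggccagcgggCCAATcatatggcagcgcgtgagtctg
Sc5d, chr9:42264301-42264420, minus strand: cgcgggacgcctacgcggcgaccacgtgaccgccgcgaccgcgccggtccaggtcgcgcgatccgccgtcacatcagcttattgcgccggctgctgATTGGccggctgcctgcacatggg
Ebp, chrX:8193513-8193632, minus strand: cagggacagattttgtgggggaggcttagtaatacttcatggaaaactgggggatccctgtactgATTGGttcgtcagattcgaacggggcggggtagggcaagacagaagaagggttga
Mylip, chr13:45389622-45389741, plus strand: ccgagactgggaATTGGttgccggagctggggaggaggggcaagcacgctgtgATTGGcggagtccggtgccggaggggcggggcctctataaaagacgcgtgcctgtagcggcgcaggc
*Mvd* and *Mylip* each held 2 copies in this stretch, and *Sc5d* and *Ebp* each held 1, although *Mvd* and *Sc5d* rose and *Ebp* and *Mylip* fell with LPS.

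The strict sterol regulatory element TCACNCCAC was found in 1.44% of genes and in 1 member, *Hmgcs1*. The E-box CACGTG was found in 8.09% of genes and in 6 members, *Hsd17b7*, *Sc5d*, *Dhcr7*, *Scap*, *Insig1* and *Abca1*. The LXR element, written as 2 AGGTCA half-sites in the same direction with any 4 bases between them, was found without mismatch in 0.0148% of genes and in no member, and with up to 2 mismatches over its 12 fixed bases in 3.47% of genes and in *Dhcr7* alone of the members. Both strands were searched for each motif, matches of different motifs may overlap, and a match or its absence describes these letters in this window only.

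With anti-IgM 4 of the 5 genes of the SREBP machinery rose and *Insig2* fell in both genotypes, and with LPS 3 rose and *Insig2* fell. Of all tested genes 32.4% rose and 32.2% fell with anti-IgM in WT cells, and 31.2% and 30.1% with LPS. The shares in *Ubqln1*-/- cells were 32.9% and 32.4% with anti-IgM, and 30.6% and 30.2% with LPS. *Srebf2*, the gene for the SREBP that drives sterol synthesis, was the most abundant member per length, with a mean of 158.7 CPM per kilobase over the 18 libraries. It went from 595, 575 and 557 CPM in resting WT libraries to 897, 907 and 882 CPM with anti-IgM and to 750.3, 745 and 696 CPM with LPS. These ranges did not overlap, and the log2 fold changes were 0.64 with anti-IgM (SE 0.07, adjusted p = 3.07e-07) and 0.34 with LPS (SE 0.07, adjusted p = 0.00027). The *Ubqln1*-/- cells had 0.64 and 0.38.

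*Scap*, the escort of SREBP, rose on the log2 scale by 0.39 with anti-IgM and 0.21 with LPS in WT cells, the latter with an adjusted p of 0.0114 that became 0.051 without the first resting library (value 0.16) and 0.0568 without the second LPS library (value 0.17). *Srebf1*, whose products act more on fatty acid synthesis, rose with anti-IgM by 0.33 in WT and 0.32 in *Ubqln1*-/- cells, and its values with LPS were 0.08 (adjusted p = 0.324) and 0.13 (adjusted p = 0.0983). The *Ubqln1*-/- value with LPS was 0.19 without the first resting library (adjusted p = 0.0497).

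The INSIG genes moved in opposite directions. *Insig1* (chr5:28071412-28078662, plus strand), which is itself an SREBP target and feeds back on SCAP, was found at 84.5, 94.2 and 92.3 CPM in resting WT cells, at 260.3, 245 and 253 CPM with anti-IgM and at 181, 182 and 175 CPM with LPS. No values overlapped between conditions, and the log2 fold changes were 1.48 (SE 0.08, adjusted p = 2.89e-10) and 0.99 (SE 0.08, adjusted p = 2.72e-08). *Insig2*, which has the same function but is not induced by SREBP, went from 29.6, 27.5 and 27.7 CPM at rest to 21.1, 22.2 and 21.8 CPM with anti-IgM and to 21.9, 21 and 22.4 CPM with LPS. All stimulated libraries were below all resting ones, with a log2 fold change of -0.38 for each stimulation in WT cells (SE 0.06) and of -0.51 and -0.41 in *Ubqln1*-/- cells.

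*Stard4*, a sterol carrier of the cytosol and an SREBP target, rose on the log2 scale by 1.00 with anti-IgM and 0.7 with LPS in WT cells (SE 0.08 each) and by 0.84 and 0.68 in *Ubqln1*-/- cells. *Soat1*, the enzyme that esterifies cholesterol for storage, went the other way with anti-IgM, from 79.7, 63.3 and 74.6 CPM at rest to 44.9, 41.6 and 41.3 CPM in WT cells. These groups did not overlap (log2 fold change -0.76, SE 0.09, adjusted p = 1.78e-06), whereas with LPS *Soat1* stood at 66.2, 56.2 and 68.1 CPM, overlapping the resting range (log2 fold change -0.19, adjusted p = 0.0801). The LPS value was called without the second resting library (-0.27, adjusted p = 0.0179) or without the third LPS library (-0.24, adjusted p = 0.0465). In *Ubqln1*-/- cells *Soat1* stood at 77.8, 72.7 and 70.6 CPM at rest and at 67.1, 58.6 and 67.2 CPM with LPS, which did not overlap (log2 fold change -0.20, adjusted p = 0.0712). That value was called in a fit of only the groups compared (adjusted p = 0.0371). It was also called with a filter of 10 counts in every library (adjusted p = 0.0468). With the replicate number as a block *Soat1* with LPS was called in WT (adjusted p = 0.0123) and *Ubqln1*-/- cells (adjusted p = 0.00991). *Npc1*, which exports cholesterol from lysosomes, fell in all 4 comparisons, by 0.74 with LPS and by 0.25 with anti-IgM in WT cells on the log2 scale (SE 0.07 each).

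The receptors of the LXR arm differed in level. *Nr1h2*, the gene for LXR-beta, was present at a mean of 68.2 CPM per kilobase, and *Nr1h3*, the gene for LXR-alpha, at 0.173 CPM per kilobase, with 1 to 17 counts per library. *Nr1h2* fell with LPS, from 147, 158 and 151 CPM to 123, 119 and 115 CPM in WT cells without overlap (log2 fold change -0.35, SE 0.06, adjusted p = 4.14e-05), and by 0.24 in *Ubqln1*-/- cells. With anti-IgM it was -0.14 in WT cells (adjusted p = 0.042) and -0.08 in *Ubqln1*-/- cells (adjusted p = 0.193). The WT call with anti-IgM was lost when any 1 of 4 libraries was left out, replicate 2 or 3 at rest (-0.10 and -0.14, adjusted p = 0.186 and 0.0863) or replicate 2 or 3 with anti-IgM (-0.11 and -0.12, adjusted p = 0.165 and 0.132). *Nr1h3* was not called in any comparison; at this depth only a large change in it could be called, with an SE of 0.5 to 0.64 on its log2 fold changes against resting cells. Its LPS value in *Ubqln1*-/- cells was -0.85 (adjusted p = 0.263), and -2.60 (adjusted p = 0.0162) without the second LPS library.

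*Abca1* (chr4:53030789-53159988, minus strand), the transporter that loads cholesterol onto apolipoprotein A-I, had 666, 596 and 903 CPM in resting WT libraries, 203, 213 and 314 CPM with anti-IgM and 315, 301 and 502 CPM with LPS. Every stimulated library was below every resting one, and the ranges of both stimulations overlapped. The log2 fold change was -1.57 with anti-IgM (SE 0.25, adjusted p = 2.93e-05) and -0.95 with LPS (SE 0.24, adjusted p = 0.00266). *Abca1* of *Ubqln1*-/- cells fell from 676, 784 and 931 CPM to 228, 274 and 368 CPM with anti-IgM (log2 fold change -1.46) and to 322, 330 and 488 CPM with LPS (log2 fold change -1.07).

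*Abcg1* (chr17:31057694-31117984, plus strand), which exports sterol to high-density lipoprotein, had 59.5, 53 and 87.3 CPM at rest in WT cells, 10.6, 9.55 and 20.2 CPM with anti-IgM and 35.1, 30.1 and 71.1 CPM with LPS. The anti-IgM libraries were the lowest, with no overlap with either other condition, while the LPS and resting libraries overlapped. The log2 fold change with anti-IgM was -2.33 (SE 0.41, adjusted p = 9.72e-05) in WT and -2.25 in *Ubqln1*-/- cells, where *Abcg1* went from 47.5, 59.7 and 88 CPM at rest to 8.96, 13.4 and 19 CPM with anti-IgM and 26.1, 35 and 61.9 CPM with LPS. With LPS it was -0.56 (SE 0.38, adjusted p = 0.213) in WT and -0.67 (SE 0.38, adjusted p = 0.141) in *Ubqln1*-/- cells. Without the third LPS library it was called in both, at -1.03 (adjusted p = 0.0294) and -1.08 (adjusted p = 0.0333). With the replicate number as a block it was called at -0.61 (adjusted p = 0.000385) and -0.70 (adjusted p = 0.000139). The labels do not say what that number marks.

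*Mylip* (chr13:45389742-45411940, plus strand) encodes IDOL, a ubiquitin ligase that marks lipoprotein receptors for degradation. It had 248, 187 and 249.8 CPM in resting WT cells, 47.4, 32 and 56.4 CPM with anti-IgM and 84.7, 63.9 and 111 CPM with LPS. The 3 conditions did not overlap, with resting highest and anti-IgM lowest. The log2 fold changes were -2.34 with anti-IgM (SE 0.25, adjusted p = 4.05e-07) and -1.4 with LPS (SE 0.24, adjusted p = 8.51e-05), and -2.25 and -1.47 in *Ubqln1*-/- cells. There *Mylip* stood at 223, 201 and 275 CPM at rest, 39.7, 43.7 and 64.4 CPM with anti-IgM and 78.6, 66.9 and 107 CPM with LPS, again without overlap. *Abcg1* and *Mylip* with anti-IgM were the only members past the study's own limits in these 4 comparisons, an absolute log2 fold change over 2 with an adjusted p under 0.001, in both genotypes.

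**Figure D2:**
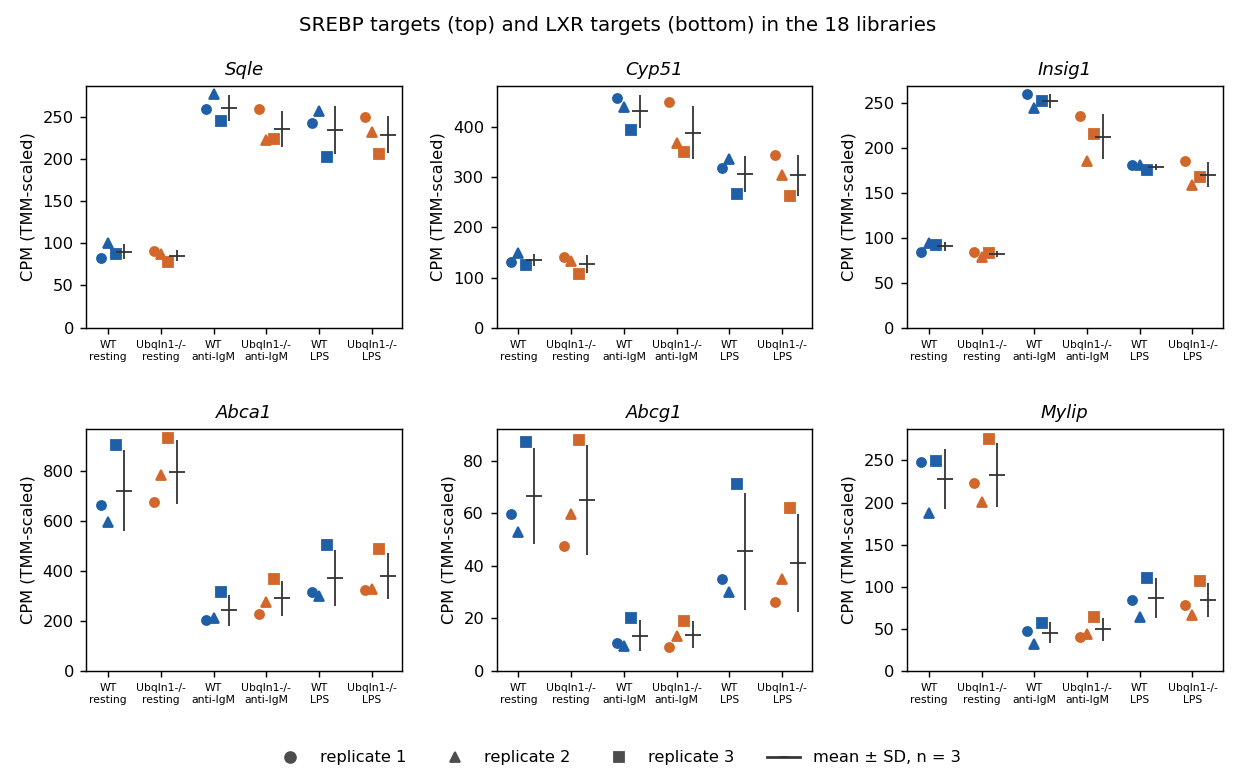
CPM of 3 SREBP targets (top) and 3 LXR targets (bottom) in each of the 18 libraries on linear axes from 0, with marks by replicate number and the mean ± SD (n = 3) beside each group. Group means of the SREBP targets are lowest at rest and those of the LXR targets highest at rest, although LPS and resting libraries of Abcg1 overlap. The squares, replicate 3, are the highest LXR target value in every group.

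The SREBP targets as a list and the 3 LXR targets of the set thus moved apart in every stimulated group. Further LXR targets, given below, did not all fall. Over the 19 measured SREBP targets, the 17 enzymes with *Insig1* and *Stard4*, 14 rose and 1 fell with anti-IgM in WT cells. Of all tested genes 32.4% rose and 32.2% fell there. The median log2 fold change of the SREBP targets was 0.78. The 3 LXR targets all fell, with a median of -2.33. With LPS in WT cells 14 SREBP targets rose and 2 fell (median 0.73), where 31.2% of all genes rose and 30.1% fell. Of the 3 LXR targets 2 were called lower (median -0.95). *Abcg1* was not called here, and was called with the replicate number as a block. In *Ubqln1*-/- cells the medians were 0.79 for SREBP targets and -2.25 for LXR targets with anti-IgM, and 0.88 and -1.07 with LPS.

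The same comparison was made library by library with the mean log2 CPM of each list, set relative to resting WT cells. SREBP targets had means of 0.77, 0.82 and 0.68 in the anti-IgM libraries and 0.65, 0.69 and 0.48 in the LPS libraries of WT cells. LXR targets had -2.22, -2.44 and -1.62 with anti-IgM and -1.16, -1.39 and -0.47 with LPS. The difference between the lists was 2.85 ± 0.49 (SD, n = 3) with anti-IgM and 1.61 ± 0.59 with LPS in WT cells, and 2.62 ± 0.55 and 1.67 ± 0.55 in *Ubqln1*-/- cells. All 12 stimulated libraries lay above the 6 resting ones, whose differences ran from -0.53 to 0.36. The LXR list varied more between libraries of a group (SD 0.29 to 0.48) than the SREBP list (SD 0.07 to 0.15), and in all 6 groups the library numbered 3 had the highest LXR value.

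**Figure D3:**
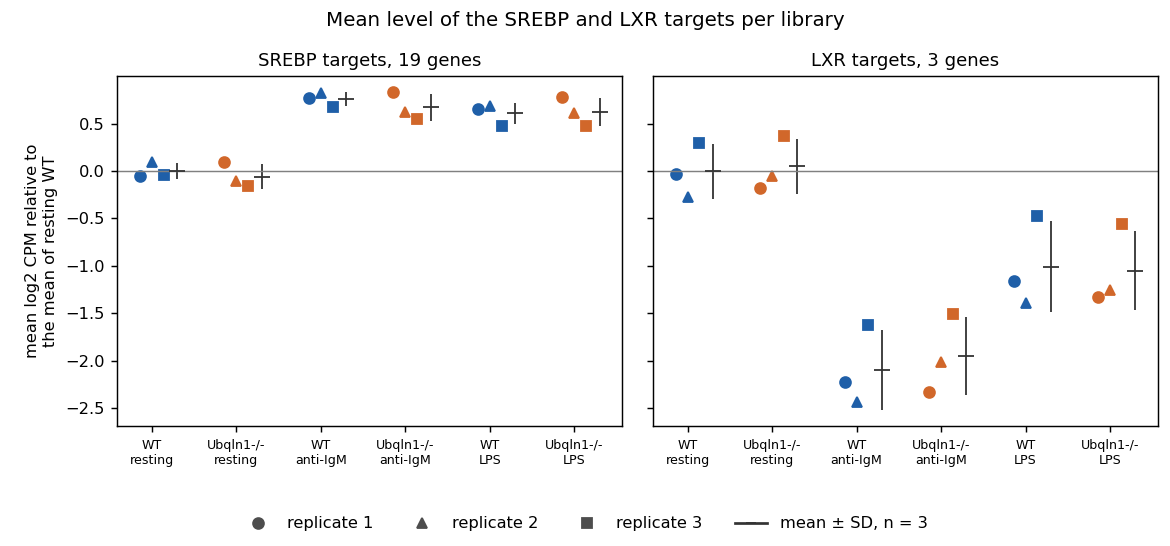
Mean log2 CPM of the 19 measured SREBP targets (left) and the 3 LXR targets (right) in each library relative to the mean of resting WT cells, with the mean ± SD (n = 3) beside each group. SREBP targets lie between 0.48 and 0.83 in stimulated libraries and LXR targets between -2.44 and -0.47.

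Markers of B cells and of other cell types also differed between the conditions. The summed B cell markers were 5013 to 6192 CPM in resting WT cells, 1622 to 2166 CPM with anti-IgM and 3116 to 4191 CPM with LPS. The ranges in *Ubqln1*-/- cells were 5327 to 5959, 1842 to 2129 and 3449 to 4095 CPM in the same order. The macrophage and monocyte markers, 9 of 10 with a row, summed to 23.4 to 49.4 CPM in resting WT cells, 13.4 to 16.6 CPM with anti-IgM and 11.5 to 17.8 CPM with LPS, and to 28.1 to 51.3, 13.9 to 16.5 and 15.4 to 20.6 CPM in *Ubqln1*-/- cells. Of these, *C1qa*, *C1qb*, *C1qc*, *Marco* and *Fcgr1* stayed under 1 CPM in every library. *Adgre1* was an uneven part of the sum, with 38, 18.6 and 9.12 CPM in the 3 resting WT libraries. Dendritic cell markers were higher with stimulation, at 11.4 to 17.7 CPM at rest, 21 to 28 CPM with anti-IgM and 40.6 to 68.7 CPM with LPS in WT cells and at 12.3 to 18.2, 23.6 to 28.7 and 51.6 to 56.3 CPM in *Ubqln1*-/- cells. Plasma cell markers summed to 252 to 465, 214 to 404 and 146 to 328 CPM in WT cells, and were lower without overlap in *Ubqln1*-/- cells in each condition, at 185 to 214, 154 to 187 and 98 to 130 CPM. The part of these markers in the results was not tested.

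The stimulations differed from each other for part of the set. In WT cells 3 of 30 members were higher with LPS than with anti-IgM (17.4% of all genes) and 11 were lower (15% of all genes). In *Ubqln1*-/- cells 4 were higher and 8 lower, against 16.8% and 14.5% of all genes; without the second anti-IgM library the 12 calls became 7. Higher with LPS in both genotypes were *Soat1*, by 0.57 in WT and 0.73 in *Ubqln1*-/- cells, *Abcg1*, by 1.77 and 1.59, and *Mylip*, by 0.94 and 0.78. Lower with LPS in both were *Cyp51*, *Ebp*, *Sc5d*, *Srebf1*, *Srebf2*, *Insig1*, *Npc1* and *Nr1h2*, led by *Cyp51* (-0.49 and -0.36), *Insig1* (-0.49 and -0.32) and *Npc1* (-0.49 and -0.48). *Abca1* had 0.62 in WT cells (SE 0.24, edgeR adjusted p = 0.0622) and 0.39 in *Ubqln1*-/- cells (SE 0.24, edgeR adjusted p = 0.251). It was not called in this fit without a block, although between same-numbered libraries it was higher with LPS each time. The labels do not say what that number marks. With the replicate number as a block more members were called between the stimulations, as given below. Of the 17 enzymes, 12 were not called between the stimulations in either genotype, and *Sqle* differed by -0.15 and -0.04 (SE 0.1).

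No member was called between genotypes. In resting cells 0 of 30 members differed between *Ubqln1*-/- and WT cells (0.0565% of all genes), with anti-IgM 0 of 30 (0.0989%) and with LPS 0 of 30 (0.0424%), and limma with voom and DESeq2 each gave 0 as well. At an unadjusted p under 0.05, edgeR's quasi-likelihood test listed 0 members at rest, 2 with anti-IgM and 0 with LPS. The 2 were *Insig1* and *Sc5d*, each with no overlap. *Insig1* stood at 235, 186 and 216 CPM in *Ubqln1*-/- cells against 260.3, 245 and 253 CPM in WT cells (log2 fold change -0.25, SE 0.08, adjusted p = 0.48). *Sc5d* stood at 100, 83.1 and 90.5 CPM against 101.7, 101.5 and 101.2 CPM (log2 fold change -0.15, SE 0.06, adjusted p = 0.865).

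Outside *Nr1h3*, *Tm7sf2* and the 3 LXR targets, the 95% intervals of the 25 other members lay within -0.48 and 0.38 on the log2 scale in all 3 conditions. For the LXR targets they were wider, from -0.97 to 0.96. The test of whether a genotype changed the response to anti-IgM or to LPS called 0 members for either (0% of all genes for both), with 0 members at an unadjusted p under 0.05 and 0 calls by limma with voom or DESeq2. The median interaction over the SREBP targets was -0.06 for anti-IgM and 0.05 for LPS. Between genotypes the median over these targets was -0.05 at rest, -0.10 with anti-IgM and 0.02 with LPS, and 0.00 over all tested genes in each. Leaving out 1 library, it ran from -0.14 to -0.01 at rest, from -0.18 to -0.05 with anti-IgM and from -0.07 to 0.07 with LPS.

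**Figure D4:**
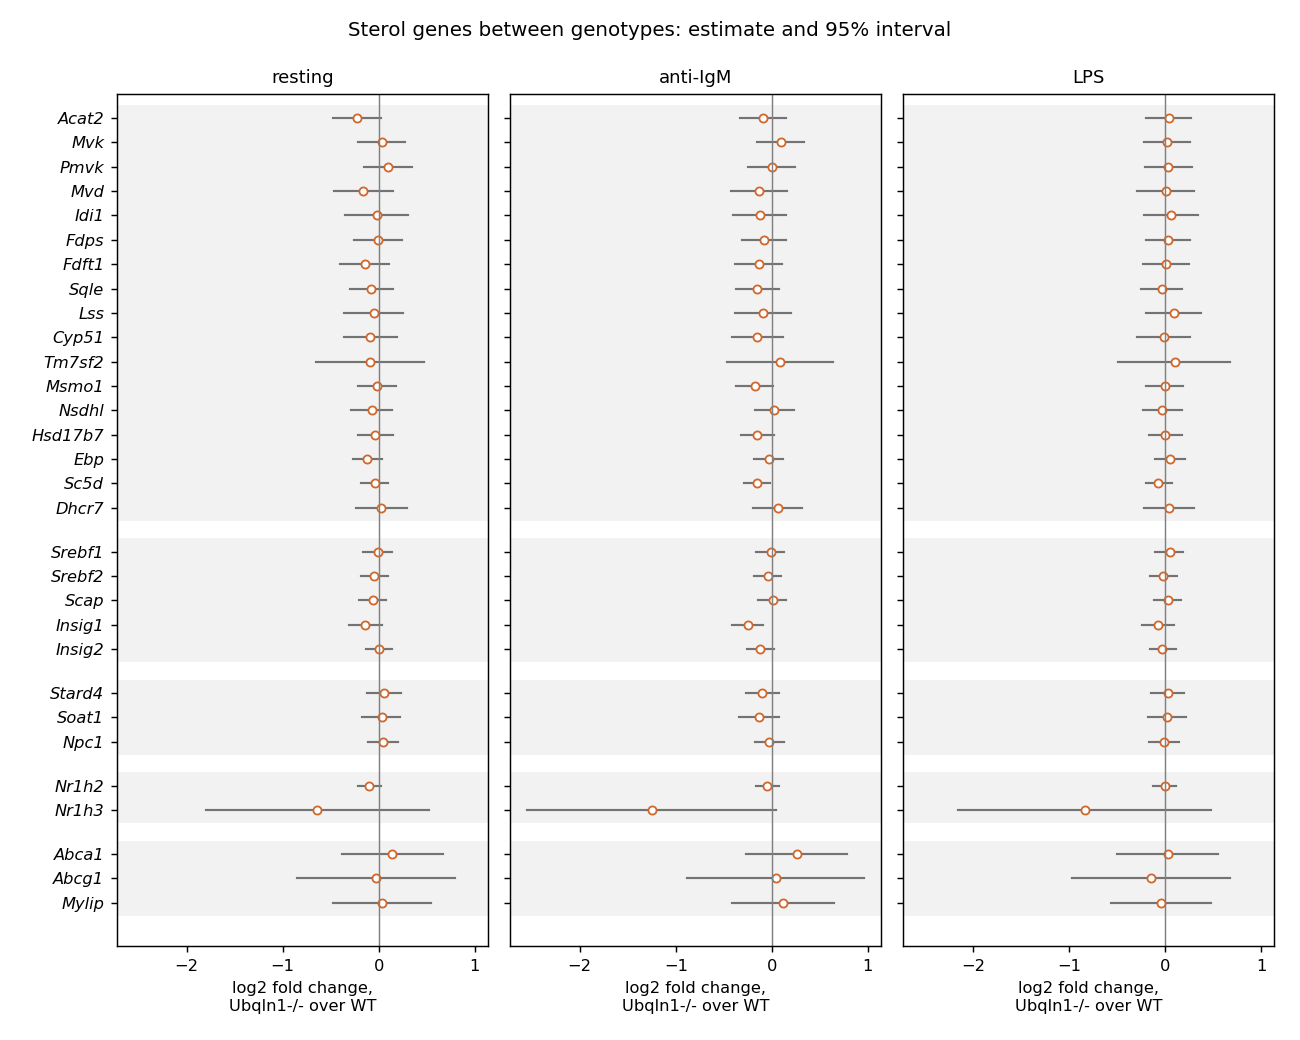
Log2 fold change of each measured member in Ubqln1-/- over WT cells at rest, with anti-IgM and with LPS, with 95% intervals from the edgeR standard error. All points are open since none passed an adjusted p of 0.05, and the widest interval belongs to Nr1h3.

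Counts of the neighbouring lists in WT cells stand beside shares of 32.4% higher and 32.2% lower with anti-IgM and 31.2% and 30.1% with LPS over all genes. Of 11 tested genes of fatty acid synthesis, 5 rose and 2 fell with anti-IgM (45.5% and 18.2%), and 3 rose and 1 fell with LPS (27.3% and 9.09%). *Fasn*, fatty acid synthase, had log2 fold changes of 1.56 with anti-IgM and 1.5 with LPS (SE 0.11 each), *Acaca*, acetyl-CoA carboxylase, had 1.34 and 0.77, and *Acss2*, an acetyl-CoA synthetase, had -1.3 and -0.57 (adjusted p = 0.101 for the latter). The median of the list was 0.2 with anti-IgM, nearer to that of all genes than the median of the sterol enzymes.

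In the isoprenoid branch, which draws on the same precursors, 7 of 11 genes rose and 1 fell with anti-IgM in WT cells (63.6% and 9.09%). *Pdss1*, which makes the tail of coenzyme Q, had a log2 fold change of 1.11, *Fntb*, a farnesyltransferase subunit, 0.98 and *Nus1*, needed for dolichol, 0.91. Of the 9 genes of SREBP cleavage and sterol-dependent degradation in the endoplasmic reticulum, 3 rose and 2 fell (33.3% and 22.2%), shares near or below those of all genes, with 0.51 for *Mbtps2*, the site-2 protease that releases SREBP, 0.51 for *Vcp*, an ATPase that extracts ubiquitinated proteins from membranes, and 0.14 for *Erlin1* (adjusted p = 0.137), which was called with LPS at 0.47.

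Among 3 tested genes of oxysterol synthesis and sensing, *Cyp27a1*, which makes 27-hydroxycholesterol, an LXR ligand, fell by 3.07 with anti-IgM and by 1.86 with LPS in WT cells (SE 0.21 and 0.18). *Gpr183*, the receptor that guides B cells along oxysterol gradients, had 1.14 and 0.62, and *Hsd3b7*, which breaks its ligand down, 0.31 and 0.26. Between genotypes *Cyp27a1* stood at 6.77, 6.76 and 7.02 CPM in resting *Ubqln1*-/- cells against 12, 12.9 and 12.1 CPM in WT cells. The groups did not overlap there nor in either stimulation, and the call at rest depended on the tool. The log2 fold change at rest was -0.85 with an adjusted p of 0.132 by edgeR (SE 0.18), while limma with voom gave an adjusted p of 0.0333 and DESeq2 0.00515. With anti-IgM and LPS none of the 3 tools called it (edgeR adjusted p = 0.473 and 0.838). Of 11 further genes of sterol transport and storage, 1 rose and 7 fell with anti-IgM in WT cells (9.09% and 63.6%). The riser was *Tmem97*, a sterol-regulated partner of NPC1, at 1.94 with anti-IgM and 1.74 with LPS (SE 0.16 each), while *Osbpl9*, a lipid transfer protein, had -0.5 and -0.92 and *Plin2*, a lipid droplet coat protein, -0.59 and -1.

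Of 5 other genes listed as LXR targets, *Nr1h3* among them, 2 fell and 1 rose with anti-IgM in WT cells (40% and 20%). *Smpdl3a*, a phosphodiesterase, had -2.01 with anti-IgM and -1.95 with LPS (SE 0.17 each), and *Abca7*, a relative of *Abca1*, had -1.83 and -0.72 (SE 0.09 each). *Lpcat3*, which remodels membrane phospholipids, went the other way, with 0.57 and 0.43 (SE 0.05 each). These further targets did not all move in 1 direction.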

How the data were processed

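RNASeq libraries (TruSeq RNA v2, not strand-specific, single-end reads of 50 bases, HiSeq2500) were aligned by the authors to GRCm38 with GSNAP, and the submitters' processing notes name R 3.2.2 and limma. The deposited counts per gene were used as given, without normalization by the authors. The deposited RPKM values (counts scaled by the authors to gene length and library total) were used only to check the total behind them, and gene widths only for levels per length. The counting program is not given in the sources used here. Groups were taken from genotype and treatment in the labels, with 3 libraries each, described by the study as independent experiments.

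Counts were tested with edgeR 4.0.16 (TMM, filterByExpr, glmQLFit and glmQLFTest, 1 term per group over all 18 libraries) in R 4.3.3, with Benjamini-Hochberg adjustment over 14161 genes and a threshold of 0.05. On simulated data for anti-IgM against resting in WT cells (13822 genes), 82% of 50 genes changed by a log2 fold of 0.6 were recovered. Of 50 genes changed by 0.3, 10% were recovered. Changed genes had a mean count of at least 50, and 9 unchanged genes were called. Few genes changed in the simulation, while 32.4% rose and 32.2% fell in the data. Adjustment over all genes is stricter where few change, so these shares do not give the power in the data. Alternatives were limma 3.58.1 with voom, DESeq2 1.42.0, RLE scaling, other filters, fits of only the groups compared, a replicate block, the study's thresholds and leaving out each library. All members are named. Of every other list, at most 3 genes called in the same direction in both genotypes were named, those with the largest change in WT cells. The members and lists were chosen with earlier results of these data known. Of the marker lists, 1 gene is not reported here and was left out of the sums.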

Additional observations from a re-analysis of the deposited data

How the results depend on the processing

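Of 1554 values of single members under an alternative, 1505 kept their direction and their side of the threshold, and 159 of 166 counts of called members stayed within 1.5 times. Under the study's thresholds the counts for anti-IgM against resting fell to 2 in WT and 2 in *Ubqln1*-/- cells, and to 0 for LPS against resting and 0 for LPS against anti-IgM in both genotypes (these thresholds change the limits on fold and on p together). Leaving out 1 library gave 7 to 10 members for LPS against anti-IgM in *Ubqln1*-/- cells (12 with all), and medians of the SREBP targets in WT cells of 0.66 to 0.92 with anti-IgM and 0.66 to 0.87 with LPS. The sign changed only for values near 0 that were not called. Leaving out 1 library, *Mvk* ran from -0.10 to 0.02 with anti-IgM and from -0.11 to 0.01 with LPS in WT cells, and from -0.09 to 0.15 and from -0.14 to 0.06 in *Ubqln1*-/- cells. *Pmvk* ran from -0.00 to 0.13 with LPS in WT cells, and from -0.12 to 0.14 with anti-IgM and from -0.07 to 0.07 with LPS in *Ubqln1*-/- cells. *Tm7sf2* ran from -0.35 to 0.13 with anti-IgM in *Ubqln1*-/- cells, and *Dhcr7* with LPS from -0.03 to 0.12 in WT and from -0.04 to 0.18 in *Ubqln1*-/- cells. *Pmvk* with LPS in *Ubqln1*-/- cells was 0.02 without the filter and 0.00 in a fit of the groups compared. The cause was not tested.

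With the replicate number as a block, 26, 24, 25 and 26 members were called for anti-IgM in WT and *Ubqln1*-/- cells and LPS in WT and *Ubqln1*-/- cells, 17 and 17 for LPS against anti-IgM, and 0 between genotypes and for the interactions. *Abcg1* with LPS was called there at -0.61 in WT cells (edgeR adjusted p = 0.000385) and -0.70 in *Ubqln1*-/- cells (adjusted p = 0.000139), and it was lower with LPS in 6 of 6 same-numbered pairs. *Soat1* with LPS was called at -0.19 (adjusted p = 0.0123) and -0.20 (adjusted p = 0.00991). Deviations from the group mean correlated between same-numbered libraries by 0.266 on average (0.055 to 0.516 over 45 pairs, 2 of them at or below 0.1), and all 18 libraries correlated best with their own number, a hint from the data. The labels do not say what the number marks, and those of the libraries called replicate 1 carry none. The number of libraries, 3 per group, and the low counts of *Nr1h3* and *Tm7sf2* limit what could be seen.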
